A study of Mus musculus with 6 samples.

Results

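The small leucine-rich proteoglycans are secreted proteins of connective tissue, and 10 of their genes were followed here in mouse muscle regenerating after an injury. The genes were Dcn, Bgn, Aspn, Lum, Fmod, Kera, Prelp, Omd, Ogn and Podn. The rule lists them by name and uses no measured value, but the family was picked with earlier results of these data known. Each was matched to its Ensembl identifier. All 10 had a row among the 16289 genes of the deposited count table, and all 10 passed the filter on low counts that left 16259 genes for testing. RNA had been sequenced from the tibialis anterior (a shin muscle) of wild-type male C57BL/6J mice, aged 12 weeks per the series' design text. Every muscle had been injected with glycerol, which destroys fibres and is followed by regeneration with fat deposits, and was taken 14 days later. The glycerol group (glycerol with a control treatment that the labels do not describe) and the glycerol+melatonin group each held 3 samples, which the submitters call biological replicates. No uninjured muscle was analysed here, so both groups share the injury, and no source used here gives the dose, route or schedule of melatonin.

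These proteins share a curved core of leucine-rich repeats that binds collagen. They sit on the surface of collagen fibrils, where they set fibril diameter and spacing, and several hold growth factors such as TGF-beta in the matrix. In skeletal muscle they are made mainly by fibroblasts, by the fibro-adipogenic progenitors that expand after injury, and by tendon cells. Class I (Dcn, Bgn, Aspn) is known for chondroitin or dermatan sulfate chains, although asporin lacks them. Class II (Lum, Fmod, Kera, Prelp, Omd) is known for keratan sulfate or sulfated tyrosines. Ogn belongs to class III and Podn to class V.

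Library totals ran from 39310361 to 48879045 counts. Of all genes tested, 12 passed at an adjusted p under 0.05 by edgeR's quasi-likelihood test (0.0738%), 9 of them lower (0.0554%) and 3 higher (0.0185%) with melatonin. For tissue the labels give tibialis anterior, but their extraction text speaks of longissimus dorsi, a back muscle. Fibre markers (Acta1, Ckm and fast myosins among 8 tested) summed to 120398 to 142027 CPM (read counts scaled to a common library total with TMM factors) in glycerol and 85733 to 133729 CPM in glycerol+melatonin. Such genes are shared by both muscles and do not tell them apart. The labels and headers name no batch, and beyond the term biological replicates no label ties each library to an animal of its own, so p-values measure the spread between these libraries.

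Of the 10 genes, 8 lie in 3 short stretches of the genome, on build GRCm38. Prelp (ENSMUSG00000041577, chr1:133910304-133921414, minus strand) and Fmod (ENSMUSG00000041559, chr1:134037254-134048277, plus strand) span 138.0 kb. Dcn (ENSMUSG00000019929, chr10:97479609-97518143), Lum (ENSMUSG00000036446, chr10:97565128-97572703) and Kera (ENSMUSG00000019932, chr10:97606879-97613692) span 134.1 kb, all on the plus strand. Aspn (ENSMUSG00000021388, chr13:49544443-49567565), Omd (ENSMUSG00000048368, chr13:49582462-49592822) and Ogn (ENSMUSG00000021390, chr13:49608046-49624501) span 80.1 kb, all on the plus strand. Bgn (ENSMUSG00000031375) lies at chrX:73483602-73495933 on the plus strand and Podn (ENSMUSG00000028600) at chr4:108014791-108096445 on the minus strand. All are protein-coding. Prelp shares 350 exon bases with Gm15851 on the other strand, and Aspn shares 7 with Cenpp on the other strand. As no source used here gives the strand setting of the counting, reads of these partners cannot be told apart.

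RefSeq's promoter table (GRCm38.p6) had entries for 8 of the 10 genes. The 250 bases before the start site are shown for 2 neighbouring pairs: Prelp and Fmod, which were lower by similar amounts, and Aspn and Omd, which had the smallest and the largest log2 fold change in size among the 10. Each is written 5′ to 3′ on the gene's own strand, and capitals mark matches to the motifs described after them. The windows are chr1:133921402-133921651 (minus strand) for Prelp, chr1:134037004-134037253 for Fmod, chr13:49544193-49544442 for Aspn and chr13:49582212-49582461 for Omd (plus strand).
Prelp: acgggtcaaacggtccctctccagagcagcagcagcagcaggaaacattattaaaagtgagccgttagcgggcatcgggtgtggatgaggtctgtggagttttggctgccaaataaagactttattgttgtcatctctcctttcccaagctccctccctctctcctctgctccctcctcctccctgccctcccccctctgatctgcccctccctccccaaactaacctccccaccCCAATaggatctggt
Fmod: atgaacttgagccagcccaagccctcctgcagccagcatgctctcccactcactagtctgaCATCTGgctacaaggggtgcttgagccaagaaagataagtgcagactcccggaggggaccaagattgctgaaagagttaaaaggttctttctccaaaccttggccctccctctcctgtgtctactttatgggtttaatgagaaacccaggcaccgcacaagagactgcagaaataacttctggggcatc
Aspn: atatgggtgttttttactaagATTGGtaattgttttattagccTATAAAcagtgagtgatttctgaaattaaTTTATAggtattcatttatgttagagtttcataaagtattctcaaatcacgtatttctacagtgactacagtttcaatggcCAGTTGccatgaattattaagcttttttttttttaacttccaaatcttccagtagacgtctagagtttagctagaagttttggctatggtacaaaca
Omd: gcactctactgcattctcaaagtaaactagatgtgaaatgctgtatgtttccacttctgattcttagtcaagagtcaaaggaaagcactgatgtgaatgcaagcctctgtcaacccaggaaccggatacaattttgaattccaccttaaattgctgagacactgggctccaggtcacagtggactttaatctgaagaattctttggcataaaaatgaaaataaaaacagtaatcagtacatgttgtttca

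The motifs searched, on both strands, were TATAAA, the E-box CANNTG, the AP-1 site TGANTCA, the GC box GGGCGG, the TEAD site CATTCC, the SMAD palindrome GTCTAGAC and CCAAT. The Prelp window held CCAAT, starting 15 bases before the start site. The Fmod window held an E-box, CATCTG, starting 189 bases before it. Aspn held 2 matches to TATAAA (1 of them read on the other strand), 1 E-box and 1 CCAAT (also read on the other strand). The Omd window held none of the 7 motifs. Over all 32851 promoter windows of this length, CCAAT was in 33.8%, an E-box in 66.2% and TATAAA in 12.4%. None of the 9 windows of the 8 genes held the AP-1 site (6.75% of all windows) or the SMAD palindrome (0.167%). GC content was 55.6% for Prelp, 51.2% for Fmod, 30.0% for Aspn and 38.4% for Omd. These are matches of letters, not measured binding.

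All 10 proteoglycan genes were lower in glycerol+melatonin than in glycerol muscle, with a median log2 fold change of -0.86. Over all genes tested, 48.3% were below 0 and the median was 0.02. By edgeR, 0 of the 10 passed at an adjusted p under 0.05, against 0.0738% of all genes, and 5 (Dcn, Fmod, Prelp, Omd, Ogn) were lower at an unadjusted p under 0.05, against 9.39% of all genes in that direction. DESeq2 called 4 of the 10 lower (Dcn, Fmod, Prelp, Omd), against 2.6% of all genes. On counts simulated with the spread estimated by edgeR and few changed genes, 38 of DESeq2's 132 calls were false, against 8 of 77 by edgeR. Of the 2-fold changes DESeq2 recovered 40.3% and edgeR 16.4%. The share of false calls depends on that setting and is no rate for the calls in these data. The other tools, limma-voom without and with sample weights, called 0 and 1 (Prelp; 0.609% of all genes were called lower with weights). For 5 of the 10 (Dcn, Fmod, Prelp, Omd, Ogn) every melatonin library lay below every glycerol library, a pattern seen in 12.5% of all genes. Summed over the 10 genes, the level was 1687, 2039 and 1781 CPM in the glycerol libraries and 1043, 1178 and 1367 CPM in glycerol+melatonin, so that the groups did not overlap. In whole muscle, fewer cells of a type and less RNA per cell cannot be told apart.

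**Figure D1:**
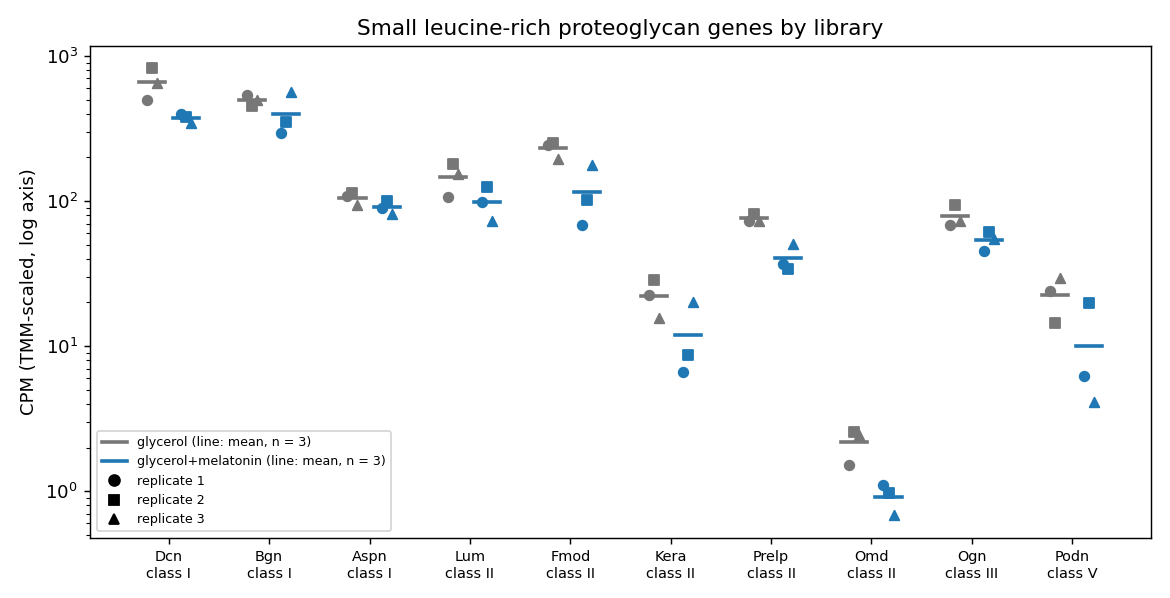
Level of each proteoglycan gene in CPM (log axis) by library; grey marks glycerol, blue glycerol+melatonin, symbols the replicate and lines the mean of 3. Dcn, Fmod, Prelp, Omd and Ogn show no overlap between groups, while glycerol+melatonin replicate 3 is the highest library for Bgn at 560.0 CPM.

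Prelp, whose arginine- and proline-rich end binds heparan sulfate and which is thought to anchor basement membranes to the matrix, showed the smallest p of the family. Its level was 73.4, 81.0 and 73.0 CPM in the glycerol libraries and 36.7, 34.1 and 50.3 CPM in glycerol+melatonin. The highest melatonin library thus lay well under the lowest glycerol library. The log2 fold change was -0.91 ± 0.18 (SE), a level 1.88-fold lower (edgeR adjusted p = 0.122, DESeq2 adjusted p = 0.00167). The DESeq2 call held with each of the 6 libraries left out in turn, with adjusted p from 3e-09 to 0.0454.

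Dcn, which encodes decorin, a collagen-binding proteoglycan that also binds TGF-beta and myostatin, was among the most abundant of the 10. It stood at 501, 822 and 646 CPM in the glycerol libraries and at 397, 380 and 345 CPM in glycerol+melatonin. The 3 melatonin libraries were close together, and glycerol replicate 2 stood above the rest. The log2 fold change was -0.81 ± 0.21 (edgeR adjusted p = 0.145, DESeq2 adjusted p = 0.0127). By DESeq2 it passed in 3 of the 6 leave-outs. The DESeq2 adjusted p was 0.134 without glycerol replicate 2, where the fold change was -0.63, and 0.0755 and 0.0608 without glycerol+melatonin replicates 2 and 3.

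Biglycan (Bgn), decorin's closest relative and in soluble form a ligand of Toll-like receptors, stood high in 1 of the melatonin libraries. Its level was 536, 452 and 498 CPM in the glycerol libraries and 294, 349 and 560.0 CPM in glycerol+melatonin. Glycerol+melatonin replicate 3 was the highest of all 6 libraries while the other two melatonin libraries were the lowest. The log2 fold change was -0.31 ± 0.25 (edgeR adjusted p = 0.515), and it was -0.12 without glycerol+melatonin replicate 1. Without glycerol+melatonin replicate 3 it was -0.62, and DESeq2 then called Bgn lower (adjusted p = 0.0165). The log2 ratio of Dcn to Bgn was -0.10, 0.86 and 0.37 in the glycerol replicates and 0.43, 0.12 and -0.70 in glycerol+melatonin, a difference of -0.43 (exact two-sided permutation p = 0.5).

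Asporin (Aspn), the class I member with an aspartate-rich end in place of sugar chains, differed least. It was at 109.1, 113 and 94.0 CPM in the glycerol libraries and at 90.2, 99.3 and 81.6 CPM in glycerol+melatonin. The groups overlapped, and the log2 fold change was -0.22 ± 0.15 (edgeR adjusted p = 0.441, DESeq2 adjusted p = 0.494). Scaled by library size alone it was -0.003, a scaling under which the median of all genes stood at 0.23 instead of 0.02. All 10 members were below 0 under that scaling too.

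In class II, fibromodulin (Fmod), which guides collagen fibril assembly in tendon, and keratocan (Kera), a keratan sulfate proteoglycan known from cornea and also made in tendon, varied together among the melatonin libraries. Fmod was at 244, 252 and 196 CPM in the glycerol libraries and at 68.5, 102.1 and 178 CPM in glycerol+melatonin. Kera was at 22.3, 28.5 and 15.7 CPM in the glycerol libraries and at 6.62, 8.73 and 20.3 CPM in glycerol+melatonin. For both genes replicate 3 lay far above the other melatonin libraries, and for Kera it lay within the glycerol range. The log2 fold changes were -0.99 ± 0.32 for Fmod (edgeR adjusted p = 0.183, DESeq2 adjusted p = 0.0351) and -0.90 ± 0.41 for Kera (edgeR adjusted p = 0.268). Without glycerol+melatonin replicate 3, they were -1.43 and -1.52, and Kera passed by DESeq2 (adjusted p = 0.000131). Fmod no longer passed by DESeq2 without glycerol replicate 1 (adjusted p = 0.236) or 2 (0.293), or without glycerol+melatonin replicate 1 (0.0955) or 2 (0.205).

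Of 10 tendon cell markers, all tested, 8 were below 0 with a median of -0.31, 0 passed by edgeR or DESeq2, and 2 were lower at an unadjusted p under 0.05. Their summed level was 654 to 737 CPM in the glycerol libraries and 412 to 634 CPM in glycerol+melatonin, where replicate 1 was the lowest. Without Thbs4 alone the sums overlapped, at 391, 389 and 468 CPM in the glycerol libraries and 275, 424 and 380 CPM in glycerol+melatonin. None of the 10 was at 0 in all libraries. Thbs4, a matrix glycoprotein of tendon, was at 263, 321 and 269 CPM in the glycerol libraries and at 138, 180.1 and 254 CPM in glycerol+melatonin. Tnmd, a membrane protein of mature tendon cells, was at 36.9, 43.8 and 41.6 CPM in the glycerol libraries and at 22.5, 36.8 and 49.2 CPM in glycerol+melatonin. In the other direction Scx, a transcription factor of tendon cells, was at 6.30, 3.78 and 8.60 CPM in the glycerol libraries and at 7.33, 12.3 and 10.6 CPM in glycerol+melatonin (0.70 ± 0.32). These 3 were chosen after their values were seen. Replicate 3 was the highest melatonin library for 4 of the 10 markers, Thbs4, Tnmd, Comp and Cilp2, and not for Scx. Replicate 2 was the highest for 4 and replicate 1 for 2. In other lists replicate 3 was the highest for 7 of 7 endothelial, 5 of 7 mural and 3 of 3 neutrophil markers. It was so for 2 of 13 progenitor, 1 of 8 muscle fibre and 0 of 7 fat cell markers. The order is thus not particular to tendon markers. The part of the tendon cell markers in the levels of Fmod and Kera was not tested.

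Lumican (Lum), the most widely expressed keratan sulfate member, was at 106, 180.4 and 154 CPM in the glycerol libraries and at 97.9, 124 and 72.7 CPM in glycerol+melatonin. The groups overlapped, since glycerol replicate 1 lay below glycerol+melatonin replicate 2. The log2 fold change was -0.58 ± 0.26 (edgeR adjusted p = 0.259, DESeq2 adjusted p = 0.187). Osteomodulin (Omd), a bone proteoglycan with sulfated tyrosines, was by far the scarcest. It had 61, 112 and 100 counts in glycerol (1.51, 2.58 and 2.45 CPM) and 48, 53 and 32 in glycerol+melatonin (1.10, 0.978 and 0.681 CPM). The groups did not overlap, and its log2 fold change of -1.24 ± 0.32 was the lowest of the 10 (edgeR adjusted p = 0.141, DESeq2 adjusted p = 0.0228). The DESeq2 call held in 2 of 6 leave-outs. It was lost without glycerol replicate 2 (adjusted p = 0.231) or 3 (0.0653) and without glycerol+melatonin replicate 2 (0.0893) or 3 (0.101).

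Osteoglycin (Ogn), a class III member of collagen-rich tissues, was at 68.8, 93.2 and 73.0 CPM in the glycerol libraries and at 45.4, 60.7 and 54.8 CPM in glycerol+melatonin. Again glycerol replicate 2 was the highest and no melatonin library reached the glycerol range. The log2 fold change was -0.55 ± 0.18 (edgeR adjusted p = 0.185, DESeq2 adjusted p = 0.101). Podocan (Podn), a class V member that binds collagen I and restrains smooth muscle cell growth, was the most uneven. It was at 23.8, 14.5 and 29.4 CPM in the glycerol libraries and at 6.24, 19.7 and 4.11 CPM in glycerol+melatonin. Glycerol+melatonin replicate 2 lay within the glycerol range, 4.80-fold above replicate 3 of its own group. The log2 fold change was -1.17 ± 0.54 (edgeR adjusted p = 0.276, DESeq2 adjusted p = 0.345). It was -2.13 without that library, where Podn passed by DESeq2 (adjusted p = 2.78e-06), and -0.79 without glycerol+melatonin replicate 3.

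**Figure D2:**
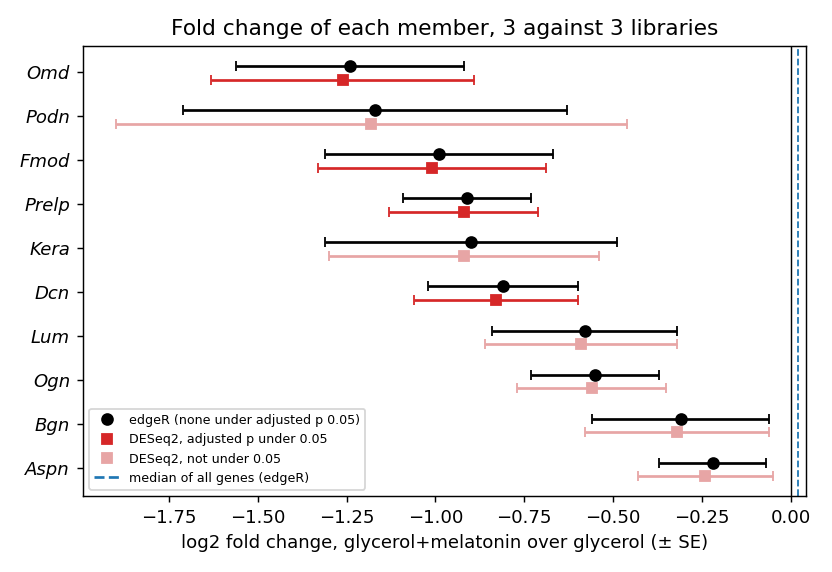
Log2 fold change of each gene, glycerol+melatonin over glycerol, by edgeR (black circles) and DESeq2 (squares, dark red where the adjusted p is under 0.05), with bars of 1 SE; the dashed line is the median of all genes tested at 0.02. Points run from -0.22 for Aspn to -1.24 for Omd by edgeR, and the DESeq2 calls are Omd, Fmod, Prelp and Dcn.

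For 8 of the 10 genes, all but Bgn and Podn, the highest level was in glycerol replicate 2. The lowest library was glycerol+melatonin replicate 3 for 5 genes (Dcn, Lum, Aspn, Omd, Podn), replicate 1 for 4 (Bgn, Fmod, Kera, Ogn) and replicate 2 for 1 (Prelp). Fmod, Kera and Bgn were thus lowest in glycerol+melatonin replicate 1 and highest within that group in replicate 3. For Dcn and Lum, which neighbour Kera on chromosome 10, replicate 3 was the lowest library of all. The neighbours on chromosome 13 had log2 fold changes of -0.22 (Aspn), -1.24 (Omd) and -0.55 (Ogn), and those on chromosome 1 had -0.91 (Prelp) and -0.99 (Fmod).

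**Figure D3:**
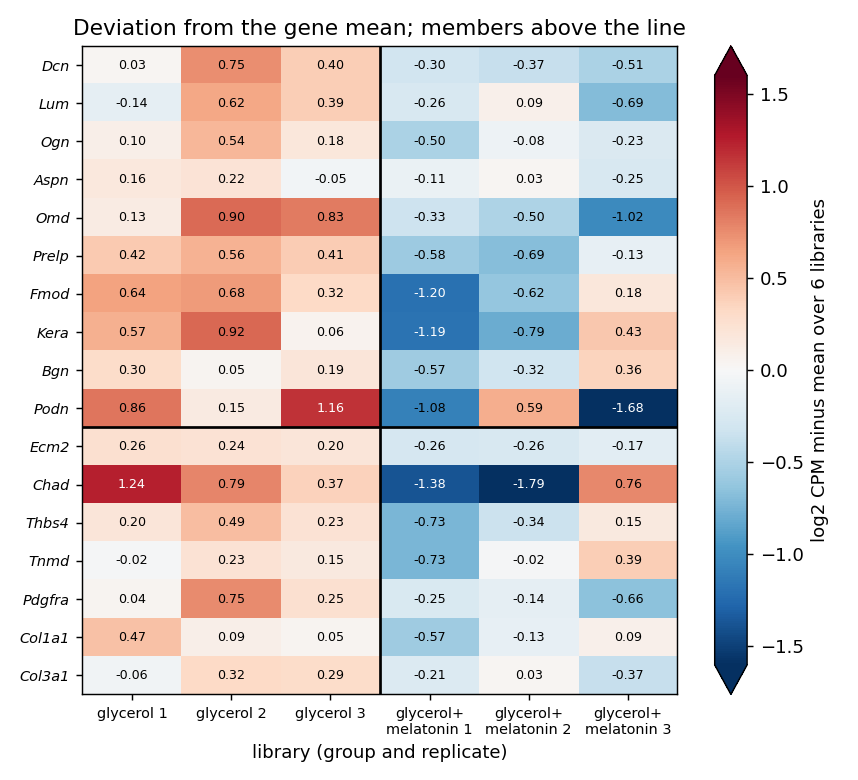
Log2 CPM of each gene minus its mean over the 6 libraries, for the 10 proteoglycans (above the line) and 7 other genes named in the text. In glycerol+melatonin replicate 3, Dcn stands at -0.51 and Lum at -0.69 while Kera stands at 0.43 and Bgn at 0.36.

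Levels of different genes were compared per kb of transcript. The longest annotated transcript of Dcn (4692 bases) and of Bgn (2666 bases) keeps an intron, so levels per kb of the longest protein-coding transcript (1758 and 2419 bases) are given as well, a choice made after the annotation was seen. On the coding scale Dcn led in glycerol with 373 ± 91.6 CPM per kb (SD, n = 3), followed by Bgn with 205 ± 17.5, and the 2 did not overlap. On the scale of the longest transcript the order of the means was turned, with Bgn at 186 ± 15.9 and Dcn at 139.9 ± 34.3 CPM per kb. There the 2 overlapped, and in glycerol replicate 2 Dcn (175) still stood above Bgn (169). The rank of these 2 genes therefore depends on the transcript assumed.

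The next levels in glycerol were Fmod with 73.9 ± 9.76, Lum with 60.0 ± 15.3 and Aspn with 45.3 ± 4.36 CPM per kb, and neighbours among these 3 overlapped. Ogn followed with 30.5 ± 5.08 and Prelp with 21.0 ± 1.24 CPM per kb, each clear of its neighbours. Kera (9.73 ± 2.80) and Podn (7.13 ± 2.37) overlapped, and Omd was last with 0.969 ± 0.260 CPM per kb. In glycerol+melatonin, Dcn was at 213 ± 14.9 and Bgn at 166 ± 58.1 CPM per kb, and they overlapped. Fmod, which ranked after Dcn and Bgn in glycerol, was at 37.2 ± 17.9 CPM per kb there, beside Lum at 40.2 ± 10.6 and Aspn at 38.8 ± 3.81. As a share of the 10 genes on the coding scale, Dcn made up 44.7% ± 5.84 in glycerol and 40.2% ± 6.99 in glycerol+melatonin, and Bgn 25.2% ± 4.99 and 30.4% ± 7.38. Those shares differed by less than 1 SD of the larger group spread. Prelp made up 2.55% ± 0.177 and 2.08% ± 0.281.

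Each proteoglycan was also set against Col1a1, the main fibrillar collagen chain, in the same library, which does not depend on how libraries are scaled. With 3 against 3 libraries the exact two-sided permutation test cannot go below 0.10, so none of the 10 comparisons could pass. Col1a1 itself was at 2865, 2197 and 2136 CPM in the glycerol libraries and at 1396, 1895 and 2194 CPM in glycerol+melatonin (-0.39 ± 0.24, edgeR adjusted p = 0.389). The log2 ratio of Fmod to Col1a1 was -3.55, -3.13 and -3.45 in the glycerol replicates and -4.35, -4.21 and -3.62 in glycerol+melatonin. That was the only one of the 10 without overlap, a difference of -0.69 (exact permutation p = 0.1, adjusted p = 0.6 over the 10). Against Col3a1 and Pdgfra the Fmod ratio overlapped, with differences of -0.73 (exact permutation p = 0.3) and -0.39 (exact permutation p = 0.5). Omd differed by -0.83 (p = 0.2), Kera by -0.63 (p = 0.3) and Prelp by -0.52 (p = 0.2), each by the exact permutation test. For Podn (-1.04), Dcn (-0.38), Bgn (0.05), Aspn (0.18), Ogn (-0.14) and Lum (-0.17) the ratio differed by less than the larger SD of the groups. The Podn difference was -1.66 without glycerol+melatonin replicate 2 and -0.42 without its replicate 3.

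Relative to Pdgfra, the receptor that marks fibro-adipogenic progenitors, the pattern was another. Pdgfra is 1 of 13 progenitor markers tested, of which 8 were below 0 and 5 above 0, with a median of -0.13. A ratio to Pdgfra is therefore not a level per progenitor cell. Pdgfra was at 40.6, 66.5 and 47.1 CPM in the glycerol libraries and at 33.3, 35.7 and 25.0 CPM in glycerol+melatonin (-0.71 ± 0.22, edgeR adjusted p = 0.176), and its groups did not overlap. The log2 ratio of Dcn to Pdgfra was 3.62, 3.63 and 3.78 in the glycerol replicates and 3.58, 3.41 and 3.79 in glycerol+melatonin, a difference of -0.09 (exact permutation p = 0.5). Against Col3a1, the other main fibrillar collagen, Dcn differed by -0.42 and Omd by -0.87 without overlap (both exact permutation p = 0.1, adjusted p = 0.4). Aspn relative to Pdgfra was 1.43, 0.77 and 1.0 in the glycerol replicates and 1.44, 1.47 and 1.71 in glycerol+melatonin, and the groups were only just apart, with a difference of 0.48 (exact permutation p = 0.1, adjusted p = 0.5). Omd relative to Pdgfra differed by -0.54, also without overlap (exact permutation p = 0.1, adjusted p = 0.5).

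**Figure D4:**
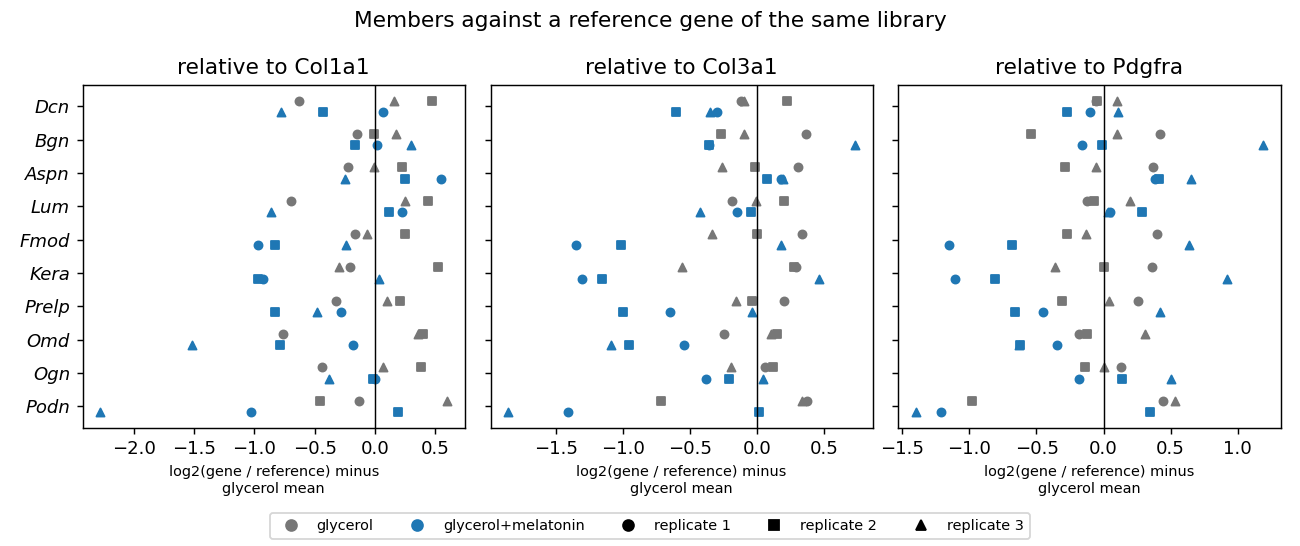
Log2 ratio of each proteoglycan gene to Col1a1, Col3a1 or Pdgfra in the same library, minus the mean of the glycerol group; grey marks glycerol and blue glycerol+melatonin, with a symbol for each replicate. Dcn relative to Pdgfra stays near 0 in all 6 libraries, and Fmod is lower in all 3 melatonin libraries relative to Col1a1 but overlaps relative to Col3a1 and Pdgfra.

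Of 14 markers of fibro-adipogenic progenitors 13 were tested, with Dcn and its family left out and none at 0 in all libraries. They summed to 1602 to 2095 CPM in the glycerol libraries and 1362 to 1621 CPM in glycerol+melatonin. These sums overlapped, but they did not without Ly6a, Cd34, Dpt or Clec3b alone. With any other marker left out they still overlapped. For 4 of the 13 (30.8%) every melatonin library lay below every glycerol library, against 12.5% of all genes, and for 0 every one lay above. Of the 13, 8 were below 0 with a median of -0.13, and 0 passed by edgeR and 2 lower by DESeq2 (5 were lower at an unadjusted p under 0.05). Those 2 were Fbn1, which encodes the microfibril protein fibrillin (-0.79 ± 0.14, DESeq2 adjusted p = 0.000512), and the transcription factor gene Osr1 (-0.65 ± 0.16, DESeq2 adjusted p = 0.0279). The part of these markers in the lower proteoglycan levels was not tested. Of 8 macrophage markers 7 were below 0 with a median of -0.23, 0 passed by edgeR, and 1 was called lower by DESeq2 (1 at an unadjusted p under 0.05). That was the scavenger receptor gene Cd163 (-0.84 ± 0.24, DESeq2 adjusted p = 0.0431). Their sum overlapped, at 471 to 676 CPM in the glycerol libraries and 431 to 639 CPM in glycerol+melatonin. Of 10 cartilage and bone markers 8 were tested, 7 were below 0 with a median of -0.33, 0 passed by edgeR and 2 were called lower by DESeq2 (2 at an unadjusted p under 0.05). Ibsp, which encodes bone sialoprotein, was at 4.27, 5.18 and 3.09 CPM in the glycerol libraries and at 0.845, 0.295 and 0.0851 CPM in glycerol+melatonin (-3.37 ± 0.62, DESeq2 adjusted p = 2.72e-07). Col10a1, a collagen of hypertrophic cartilage, was at 0.988, 1.40 and 1.59 CPM in the glycerol libraries and at 0.297, 0.406 and 0.383 CPM in glycerol+melatonin (-1.86 ± 0.34, DESeq2 adjusted p = 0.0018). Both lay without overlap, like Omd. That held for 3 of the 8 markers (37.5%, against 12.5% of all genes), the third being Runx2 (-0.38 ± 0.20). The groups overlapped for Acan, Sox9, Sp7, Alpl and Col9a1. The list summed to 34.0 to 45.9 CPM in the glycerol libraries and 30.4 to 33.0 CPM in glycerol+melatonin, and these sums overlapped without Ibsp or without Col10a1. The part of these markers in the level of Omd was not tested.

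Other genes of the family gave a mixed picture. Of 8 further members, 5 were tested, 2 were below 0, and 0 passed by edgeR or DESeq2 (1 at an unadjusted p under 0.05). Ecm2, which encodes a matrix protein with leucine-rich repeats, was at 51.5, 50.7 and 49.4 CPM in the glycerol libraries and at 35.8, 35.97 and 38.1 CPM in glycerol+melatonin. Its groups were far apart relative to their spread (-0.46 ± 0.13, edgeR adjusted p = 0.157, DESeq2 adjusted p = 0.0654). Chad, which encodes the cartilage and tendon protein chondroadherin, was at 21.9, 15.9 and 12.0 CPM in the glycerol libraries and at 3.56, 2.68 and 15.7 CPM in glycerol+melatonin (-1.18 ± 0.61, edgeR adjusted p = 0.320). As with Fmod and Kera, replicate 3 was the highest melatonin library.

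The enzymes that build the sugar chains showed no call by edgeR. Of 7 linker enzymes, 2 were below 0 and 1 was called lower by DESeq2 (1 at an unadjusted p under 0.05). That was Fam20b, the kinase that phosphorylates the linker xylose and so promotes chain growth, at 57.7, 63.1 and 48.2 CPM in the glycerol libraries and at 39.7, 34.2 and 26.7 CPM in glycerol+melatonin. Its groups did not overlap (-0.75 ± 0.19, edgeR adjusted p = 0.141, DESeq2 adjusted p = 0.0232). B3galt6, which adds a galactose of the linker, was at 0.40 ± 0.23. Of 15 chondroitin and dermatan sulfate enzymes, 11 were below 0 with a median of -0.30, 1 was lower at an unadjusted p under 0.05 and 0 passed by either tool. They included Dse, the epimerase that makes dermatan sulfate (-0.56 ± 0.22), and Csgalnact2, which starts chondroitin chains (-0.44 ± 0.20). Of 6 keratan sulfate enzymes, 2 were below 0 and 0 passed by either tool, with 1 lower and 1 higher at an unadjusted p under 0.05. These were the core fucosyltransferase Fut8 (-0.51 ± 0.15) and the galactosyltransferase B4galt4 (0.57 ± 0.19).

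Most of the collagen chains that the family binds were also below 0. Of 14 collagen chains, 13 were below 0 with a median of -0.39. For 8 of them (57.1%) every melatonin library lay below every glycerol library, against 12.5% of all genes. By edgeR 0 passed, and 1 was called lower by DESeq2 (5 at an unadjusted p under 0.05). That was Col12a1, which bridges fibrils, at 59.3, 75.0 and 56.1 CPM in the glycerol libraries and at 31.3, 41.5 and 35.9 CPM in glycerol+melatonin (-0.81 ± 0.18, edgeR adjusted p = 0.132, DESeq2 adjusted p = 0.0071). Col6a3, a chain of the microfibrillar collagen to which decorin and biglycan bind, was at -0.62 ± 0.22, and Col3a1 at -0.37 ± 0.22. Whether the proteoglycans differed from the collagens as a list was not tested.

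Among 14 genes of proteases that process or cleave matrix proteins and of their enhancers, 9 were below 0 and 0 passed by edgeR. DESeq2 called 2 lower (3 at an unadjusted p under 0.05). Those were Adamts5, which cleaves proteoglycan cores, at 27.2, 28.8 and 24.6 CPM in the glycerol libraries and at 18.02, 15.9 and 15.8 CPM in glycerol+melatonin (-0.70 ± 0.15, DESeq2 adjusted p = 0.00924), and Pcolce2, an enhancer of procollagen processing (-0.91 ± 0.27, DESeq2 adjusted p = 0.0465). Of 13 growth factors bound by or linked to the family, 6 were below 0 and 0 passed by edgeR, with 1 lower and 3 higher at an unadjusted p under 0.05 (10.1% of all genes were higher by this rule). DESeq2 called 1 higher, against 2.03% of all genes: the endothelial growth factor gene Vegfa, at 163, 202 and 145 CPM in the glycerol libraries and at 274, 348 and 278 CPM in glycerol+melatonin (0.82 ± 0.19, DESeq2 adjusted p = 0.00831). Pdgfb, a growth factor of mural cells, was at 0.55 ± 0.16. Tgfb1 was at 64.4, 54.5 and 58.3 CPM in the glycerol libraries and at 53.0, 47.6 and 77.1 CPM in glycerol+melatonin (0.00 ± 0.20). The gene of myostatin, Mstn, was at -0.54 ± 0.37, with overlapping groups. Of 15 receptors through which the family is known to signal, 12 were below 0 with a median of -0.17, 0 passed by either tool, and 3 were lower at an unadjusted p under 0.05. Egfr, a receptor that decorin binds, was at -0.60 ± 0.16 (DESeq2 adjusted p = 0.0507), and the BMP receptor gene Bmpr1a at -0.58 ± 0.18.

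The genes whose levels over the 6 libraries were most like the mean of the 10 standardised proteoglycan profiles were found among 13865 other genes with a mean of at least 1 CPM. They were Add3 (Pearson r = 0.990), Col12a1 (0.989), Usp12 (0.989), Col5a2 (0.989) and App (0.986), given as a description over 6 libraries that fall into 2 groups. Because that mean profile was lower with melatonin, genes picked by it are lower too, and their fold changes are no separate result. Add3 encodes a membrane skeleton protein and was at 28.5, 33.4 and 30.5 CPM in the glycerol libraries and at 20.1, 21.4 and 21.3 CPM in glycerol+melatonin (-0.56 ± 0.14, edgeR adjusted p = 0.141, DESeq2 adjusted p = 0.0359). Col5a2, a chain of the collagen that starts fibrils, was at 259.9, 303 and 263 CPM in the glycerol libraries and at 186, 223 and 209.9 CPM in glycerol+melatonin (-0.42 ± 0.16). The mean standardised level of the 10 genes was 0.50, 1.01 and 0.57 in the glycerol replicates and -1.02, -0.47 and -0.59 in glycerol+melatonin.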

How the data were processed

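The data were 6 RNA-seq libraries of whole muscle. The authors deposited raw read counts per Ensembl gene in a single table. The submitters' processing notes list DESeq2 1.12.4, StringTie 1.3.3b, HISAT2 2.0, Trimmomatic 0.36, FastQC 0.11.2 and bedtools 2.26.0, with build mm10. No source used here names the program that counted the reads, its annotation, or how it handled strand and multiply mapped reads. The smallest gene total was 28, so the table had been filtered on low counts. Columns were matched to samples by treatment code and replicate number.

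Counts were tested over the whole table with edgeR 4.0.16 (quasi-likelihood test, TMM factors, filterByExpr, R 4.3.3) with Benjamini-Hochberg adjustment and a threshold of 0.05. The SE is the log2 fold change divided by the square root of F. DESeq2 1.42.0 and limma 3.58.1 (voom) were alternatives, beside other scalings and filters, a correction for transcript length, a replicate block and leaving out each library. DESeq2 with each library left out and levels per kb of the longest protein-coding transcript, and marker sums with each marker left out, were added after the data were seen. Scripts were tested on simulated data. Positions and lengths came from GENCODE M21 (GRCm38, the assembly of mm10) and promoters from RefSeq.

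The members and gene lists were chosen with earlier results of these data known. Named are the 10 members, Col1a1, Col3a1, Pdgfra, Tgfb1, Mstn, the 2 genes of each family list with the smallest p, any list gene that passed by edgeR (there was none), and the 5 genes most like the members. Marker genes called by DESeq2, Thbs4, Tnmd and Scx are named outside this rule, after their values were seen. So are markers named for their overlap, their order of libraries or their part in a sum. Omd had the fewest counts, from 32 to 112 per library, so counting error weighs most there.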

Additional observations from a re-analysis of the deposited data

How the results depend on the processing

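All 10 members stayed below 0 under each of the 16 other settings of the test, and their median ran from -0.91 to -0.62. The number of members called was 0 by edgeR in every setting, 4 by DESeq2 and 1 by limma-voom with sample weights. With a library left out DESeq2 called 1 to 4 (1 without glycerol replicate 2, 2 without glycerol+melatonin replicate 2). The share of all genes called in those leave-out fits is not given here. These calls, among them those of Bgn, Kera and Podn, therefore lack a baseline. At an unadjusted p under 0.05 in either direction, DESeq2 without glycerol replicate 2 had 4 members and 1922 of 16277 genes. Without glycerol+melatonin replicate 2 it had 7 members and 2575 of 16268 genes, and without replicate 3 of that group 7 and 2694 of 16273. Over all genes, where 12 passed by edgeR, the count with all 6 libraries was 753 by DESeq2 and 199 by limma-voom with sample weights. By edgeR it was 7 after the correction for transcript length and 6 to 27 with a library left out. It was 6 without glycerol replicate 1, 27 without glycerol replicate 3, and 25 and 24 without glycerol+melatonin replicates 1 and 3. With a replicate block 0 genes passed by edgeR (2991 at an unadjusted p under 0.05). Same-numbered libraries of the 2 groups deviated from their group means with correlations of -0.015, 0.004 and -0.048, and no library correlated best with its own number. This showed no pairing by number, although a check on 3 libraries per group cannot exclude one. The cause of these differences was not tested.

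Relative to Pdgfra in place of Col1a1, the difference turned to 0.12 for Lum and 0.155 for Ogn. With a library left out the difference relative to Col1a1 ran from -0.079 to 0.16 for Bgn, from -0.52 to 0.171 for Lum, from -0.36 to 0.049 for Ogn and from -0.002 to 0.40 for Aspn. Over all 6 libraries the share of the 10 genes per kb of the longest transcript was 22.7% for Dcn, 35.4% for Bgn, 10.5% for Lum, 11.1% for Fmod, 5.37% for Ogn, 3.27% for Prelp and 9.08% for Aspn. Per kb of the longest protein-coding transcript these were 42.5%, 27.8%, 7.41%, 7.89%, 3.80%, 2.31% and 6.42%, and without length Dcn was at 33.6%, Ogn at 4.38% and Aspn at 6.72%. Only the lengths assumed for Dcn, Bgn and Podn differ between the first 2 scales.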

Other observations

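Markers of other cells of the muscle did not all lie to the same side as the proteoglycans. Muscle stem cell markers (6 of 6 tested) summed to 83.2, 67.0 and 65.0 CPM in the glycerol libraries and to 92.2, 98.7 and 103 CPM in the melatonin libraries, with 5 of 6 above 0 and a median log2 fold change of 0.30. The sums did not overlap, but without Sdc4 alone they did, at 62.6, 37.9 and 37.4 CPM and at 46.2, 43.4 and 71.0 CPM. Neutrophil markers (3 of 6 tested) were scarce, at 3.20 to 4.30 CPM in sum in glycerol and 4.68 to 16.98 CPM in glycerol+melatonin, where replicate 3 was the highest. Schwann cell markers (6 of 6 tested) summed to 152 to 159 CPM in glycerol and 109.7 to 148 CPM in glycerol+melatonin, with a median of -0.36, and overlapped without Pmp22. Fat cell markers overlapped, at 2804 to 4700.2 CPM and 2740.4 to 3606 CPM, and Car3 made up most of those sums. Without Car3 they were 59.5, 41.2 and 306 CPM in glycerol and 150, 65.8 and 44.0 CPM in glycerol+melatonin, and still overlapped. Endothelial markers, at 835 to 1009 CPM and 752 to 1259.8 CPM, and mural cell markers, at 1241 to 1256 CPM and 1106 to 1353 CPM, overlapped too. Of these lists edgeR called 0 genes, and DESeq2 called 1 higher, the neutrophil gene S100a9 (0.0494, 0 and 0.0980 CPM in glycerol and 0.320, 1.64 and 7.23 CPM in glycerol+melatonin, DESeq2 adjusted p = 0.0071). By unadjusted p under 0.05, 4 genes were higher (2 neutrophil, 1 stem cell, 1 endothelial) and 2 lower (1 mural, 1 Schwann). Their part in the proteoglycan levels was not tested.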
